A study of Mus musculus with 4 samples.

Results

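The 9 genes described here belong to red blood cells and platelets, and they were measured in bronchial epithelial cells prepared from mouse lung. They are 4 red cell genes (Hba-a1, Hbb-b1, Alas2 and Slc4a1) and 5 platelet genes (Pf4, Ppbp, Itga2b, Gp9 and Gp1bb). They were chosen by name, as every probe whose gene name in the scanner files is one of the 9, which gave 11 probes for 9 of the 28663 named genes on the array. Gp1bb has 3 probes and each of the other genes has 1.

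The mice carried the wild-type gene (Pla2g3+/+) or were labelled Pla2g3-/-, a knockout of the gene of group III secreted phospholipase A2. Each genotype label has a control group and a group challenged with ovalbumin (OVA), which gives 4 groups, control and challenged in wild type and the same under the Pla2g3-/- label. OVA at 10 µg with 1.3 mg of alum was injected in 0.2 ml on days 0 and 14, an aerosol of 1% OVA followed for 30 min a day on days 26, 27 and 28, and lungs were harvested 3 h after challenge. The treatment of the control mice, the age of the mice and the part of Pla2g3 that was deleted are not given in the sources used here. RNA pooled from 4 samples stands for each group on 1 single-colour array, so there is no replicate and no single difference below carries a p-value.

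Red blood cells lose their nucleus as they mature, and the youngest of them in the circulation still carry RNA for haemoglobin, for the erythroid enzyme of haem synthesis and for membrane proteins. Platelets are fragments shed by megakaryocytes, which reside in bone marrow and also in the lung, and they carry RNA made in the parent cell for their granule chemokines and adhesion receptors. Both cell types fill the vessels of the lung, and platelets are known to gather in the airways in allergic inflammation. Fewer cells of a type and less RNA per cell cannot be told apart in RNA pooled from many cells.

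Each array had 78.7% to 81.5% of its probes well above background, no spot was saturated, and the 75th percentile of signal lay between 1808 and 1986 intensity units. A level below is the log2 signal minus that percentile of the array, a difference is taken between such levels, and a difference of 1 is 2-fold. The error that the scanner gives for a difference was about 0.20 for bright probes and up to 0.25 for dim ones, and it covers spots only, not mice, pools or labelling. All 20 genes of a list of airway epithelial markers were well above background on at least 1 array, and 19 on all 4. The labels were checked on Pla2g3, whose brighter probe read 239.5 (control) and 254 (challenged) intensity units in wild type but 2023 and 4154 under the Pla2g3-/- label. Its other probe read 44.09 and 13.06 in wild type and 177.4 and 336.3 under the Pla2g3-/- label. Both went against that label. Whether either probe lies in the deleted part is not known, so the check cannot settle the label. The control array labelled Pla2g3-/- also stood apart in genes of thymocytes, all 10 of which read at least 2-fold higher there than on the wild-type control array, as did 3.19% of all genes, with a median difference of 4.09 for the 10. Challenge differences of the 9 genes that rest on it are therefore also given with the wild-type control array in its place. This is done where they moved past the scanner error or crossed 2-fold. It is not done for genes of the other lists, whose differences under the Pla2g3-/- label can also rest on that array.

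The 4 red cell genes read lower on the challenged array than on the control array of the same genotype label, 4 of 4 in both, and all 4 read lowest on the challenged array labelled Pla2g3-/-. In wild type the differences ran from 1.22-fold (Hba-a1) to 1.88-fold (Slc4a1), and in the arrays labelled Pla2g3-/- from 1.60-fold to 2.53-fold for the same genes. None of the 4 reached 2-fold in wild type, where 1.68% of all genes were at least 2-fold lower, and 3 of 4 did in the arrays labelled Pla2g3-/-, where 3.42% of all genes were. Under quantile and median scaling, and with the other control array, 2 of 4 did. Of all genes, 54.3% and 57.8% read below 0 in these challenge differences and 38.5% in both, and 38.6% had their lowest level on the challenged array labelled Pla2g3-/-.

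Hba-a1 encodes an alpha chain of adult haemoglobin, and its probe lies at chr11:32183955-32184014 (mm9, plus strand). In wild type it read 286259 intensity units on the control array and 214412 on the challenged array, and under the Pla2g3-/- label 292468 and 197391. Both control arrays read above both challenged arrays. Its challenge difference was -0.28 in wild type and -0.68 in the arrays labelled Pla2g3-/-, each with a scanner error of 0.20. The control arrays, 0.15 apart, did not differ beyond that error. The probe is printed because it cannot separate Hba-a1 from its near copy Hba-a2: the files pair it with RefSeq mRNAs of both genes.
Hba-a1 probe: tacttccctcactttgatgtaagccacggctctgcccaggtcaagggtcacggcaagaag

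Hbb-b1 encodes a beta chain of adult haemoglobin, and its probe lies at chr7:110976379-110976438 (mm9, minus strand). The control arrays gave 37533 (wild type) and 37941 (labelled Pla2g3-/-) intensity units, and the challenged arrays 21697 and 20314 in that order. Both control arrays again read above both challenged arrays, by 1.57-fold in wild type and 2.01-fold in the arrays labelled Pla2g3-/- (log2 differences of -0.66 and -1.01). The value of -1.01 lies just past the 2-fold line, and it was -0.95 under quantile normalization, -0.94 with the median of detected probes as the scale and -0.88 against the wild-type control array. The files pair the probe with 2 RefSeq mRNAs of the beta-globin locus, so its signal cannot be assigned to 1 gene copy.

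Alas2, the erythroid form of the enzyme that makes the first step of haem synthesis, has its probe at chrX:147004993-147005052 (mm9, plus strand). It read 15480 and 14351 intensity units on the control arrays (wild type, then labelled Pla2g3-/-) and 9906 and 6954 on the challenged arrays in the same order. The control arrays had the same level to 0.01, and the challenged array labelled Pla2g3-/- was the lowest, at -0.64 from the wild-type challenged array. Challenge differences were -0.51 in wild type and -1.15 in the arrays labelled Pla2g3-/-. The gap between these challenge differences was -0.65, with a scanner error of 0.29.

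Slc4a1 encodes band 3, the chloride and bicarbonate exchanger of the red cell membrane, and its probe lies at chr11:102210256-102210315 (mm9, minus strand). The signal was 1012 (wild type) and 620.1 (labelled Pla2g3-/-) intensity units on the control arrays and 490.3 and 264.4 on the challenged arrays in the same order. Taken in that order the levels were -0.97, -1.56, -1.88 and -2.90, each below the one before it by more than the scanner error of 0.20. With challenge it differed by -0.91 in wild type and -1.34 in the arrays labelled Pla2g3-/-. Slc4a1 also read lower on the arrays labelled Pla2g3-/-, by -0.59 without challenge and -1.02 with it, whereas the other 3 red cell genes differed by 0.01 to 0.15 without challenge. With the other control array in place of its own, its challenge difference was -0.32 in wild type and -1.93 in the arrays labelled Pla2g3-/-.

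**Figure D1:**
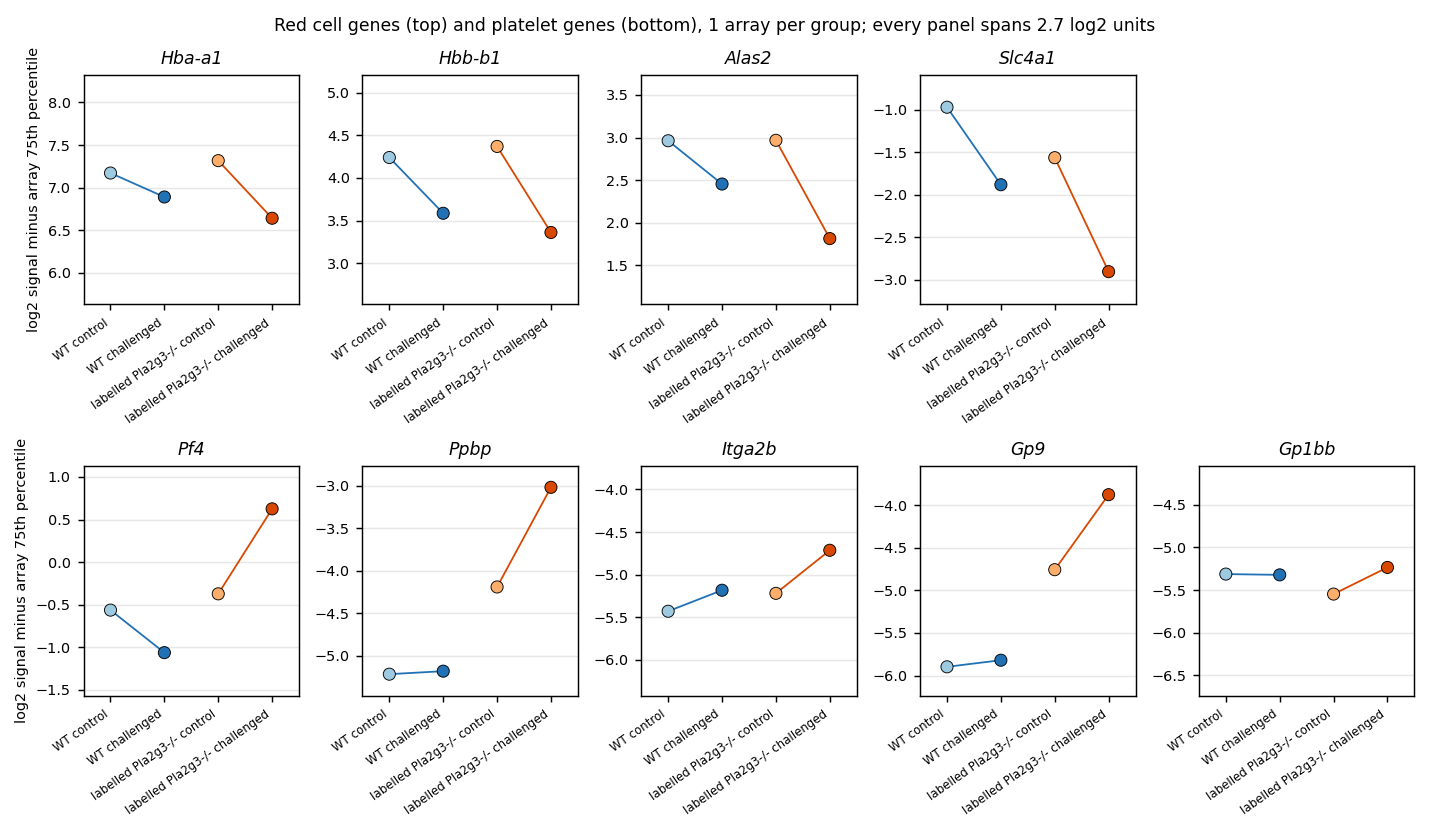
Log2 signal minus the array's 75th percentile for each of the 9 genes (vertical axis) on the 4 arrays (horizontal axis), with 1 point per array and a line joining the control to the challenged array of a genotype label. The 4 red cell genes in the top row go down along both lines, whereas Pf4, Ppbp and Gp9 in the bottom row are highest on the challenged array labelled Pla2g3-/-.

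The platelet genes showed another pattern. Their median challenge difference was 0.04 in wild type, with 3 of 5 above 0, as were 45.7% of all genes, and none 2-fold higher, as were 1.81%. In the arrays labelled Pla2g3-/- the median was 0.88 and all 5 read higher after challenge, 1 of them (Ppbp) at least 2-fold, where 3.87% of all genes passed 2-fold upward and 42.2% read above 0. That count was 0 under normexp, 2 under quantile and median scaling, and 3 with the other control array. All 5 had their highest level on the challenged array labelled Pla2g3-/-, as did 21% of all genes, though for Gp1bb the lead over the wild-type challenged array (0.09) was below the scanner error of 0.22 and became -0.19 with the mean of its probes. Between the challenged arrays, 3 of 5 (Pf4, Ppbp and Gp9) were at least 2-fold higher on the one labelled Pla2g3-/-, where 3.84% of all genes were.

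Pf4, platelet factor 4, is a chemokine stored in the alpha granules of platelets, and its probe lies at chr5:91202275-91202334 (mm9, plus strand). In wild type it read 1343 intensity units on the control array and 864.8 on the challenged array, and under the Pla2g3-/- label 1417 and 3053. The control arrays lay 0.19 apart, within the scanner error of 0.20, and the challenged arrays lay on opposite sides of them. Its challenge difference was -0.50 in wild type (1.41-fold lower) and 1.00 in the arrays labelled Pla2g3-/-, just short of the 2-fold line, which it passed under quantile normalization (1.03), under median scaling (1.06) and against the wild-type control array (1.19). Between the challenged arrays Pf4 differed by 1.69, or 3.22-fold. The gap between the challenge differences was 1.50, with a scanner error of 0.29.

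Ppbp, pro-platelet basic protein, is the precursor from which other alpha-granule chemokines are cut, and its probe lies at chr5:91198970-91199029 (mm9, plus strand), 3305 bases from that of Pf4. In wild type the signal was 53.45 intensity units on the control array and 49.86 on the challenged one, and under the Pla2g3-/- label it was 100.4 and 243.9. The wild-type arrays read alike to 0.04, and both arrays labelled Pla2g3-/- were above them. The difference with challenge was 1.17 in the arrays labelled Pla2g3-/-, and the genotype difference was 1.02 without challenge and 2.16 with it (4.47-fold). The probe is dim: under normexp background correction with an offset of 50 these 3 differences were 0.81, 0.58 and 1.31. With the wild-type control array as the control, the challenged array labelled Pla2g3-/- read 2.20 higher, and against the control array labelled Pla2g3-/- the wild-type challenged array differed by -0.99.

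Gp9 encodes glycoprotein IX, a small subunit of the platelet receptor for von Willebrand factor, and its probe lies at chr6:87729650-87729709 (mm9, plus strand). In wild type it read 33.31 intensity units on the control array and 32.00 on the challenged one, and under the Pla2g3-/- label 67.85 and 134.8. Like Ppbp, Gp9 read alike on the wild-type arrays and higher on both arrays labelled Pla2g3-/-. Between control and challenge it differed by 0.08 in wild type and 0.88 in the arrays labelled Pla2g3-/-, and the genotype difference was 1.14 without challenge and 1.94 with it (3.85-fold). Under normexp the last 3 of these were 0.44, 0.47 and 0.85, so neither genotype difference of this dim probe reached 2-fold there. With the other control array in place of its own, the challenge difference of Gp9 was -1.06 in wild type and 2.02 in the arrays labelled Pla2g3-/-.

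Itga2b and Gp1bb differed less between arrays. Itga2b encodes the alpha subunit of the platelet fibrinogen receptor, and its probe has no position in the files. The signal was 46.06 and 49.22 intensity units on the control arrays (wild type, then labelled Pla2g3-/-) and 49.75 and 75.41 on the challenged arrays in the same order. The first 3 arrays lay within 0.25 of each other, close to the scanner error of this dim probe, and the challenged array labelled Pla2g3-/- lay 0.47 above the wild-type challenged array. The challenge difference was 0.25 in wild type and 0.51 in the arrays labelled Pla2g3-/-, and the second of these was 0.22 under normexp.

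Gp1bb encodes the beta chain of glycoprotein Ib, the partner of glycoprotein IX in the same receptor, and its brightest probe lies at chr16:18621107-18621166 (mm9, minus strand). It read 49.96 and 39.22 intensity units on the control arrays (wild type, then labelled Pla2g3-/-), and 45.19 and 52.55 on the challenged arrays. These 4 levels spanned 0.31, the smallest span among the 9 genes. The challenge difference was -0.01 in wild type, a sign that turned under normexp, quantile and median scaling. In the arrays labelled Pla2g3-/- it was 0.31, but 0.08 under normexp, with the mean of all probes and against the wild-type control array. Of the other probes, the one at chr16:18621535-18621594 was not well above background on any array, and the one at chr16:18621717-18621776 passed it only once, with 19.90 intensity units in challenged wild type. Set against its undetected control reading of 13.40, that gives a wild-type challenge difference of 1.63-fold for that probe, against 1.01-fold for the brightest. On the log2 scale it is 0.71, with a scanner error of 0.41. Septin5, whose gene overlaps Gp1bb in RefSeq's annotation, had challenge differences of -0.01 and -0.04 by its own probe. The probes of Itga2b and Gp1bb are printed because both genes read dim while their probes differ in base composition: g and c make up 55.0% of the first and 80.0% of the second.
Itga2b probe: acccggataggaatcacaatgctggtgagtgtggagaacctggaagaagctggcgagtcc
Gp1bb probe: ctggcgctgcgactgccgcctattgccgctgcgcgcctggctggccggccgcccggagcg

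**Figure D2:**
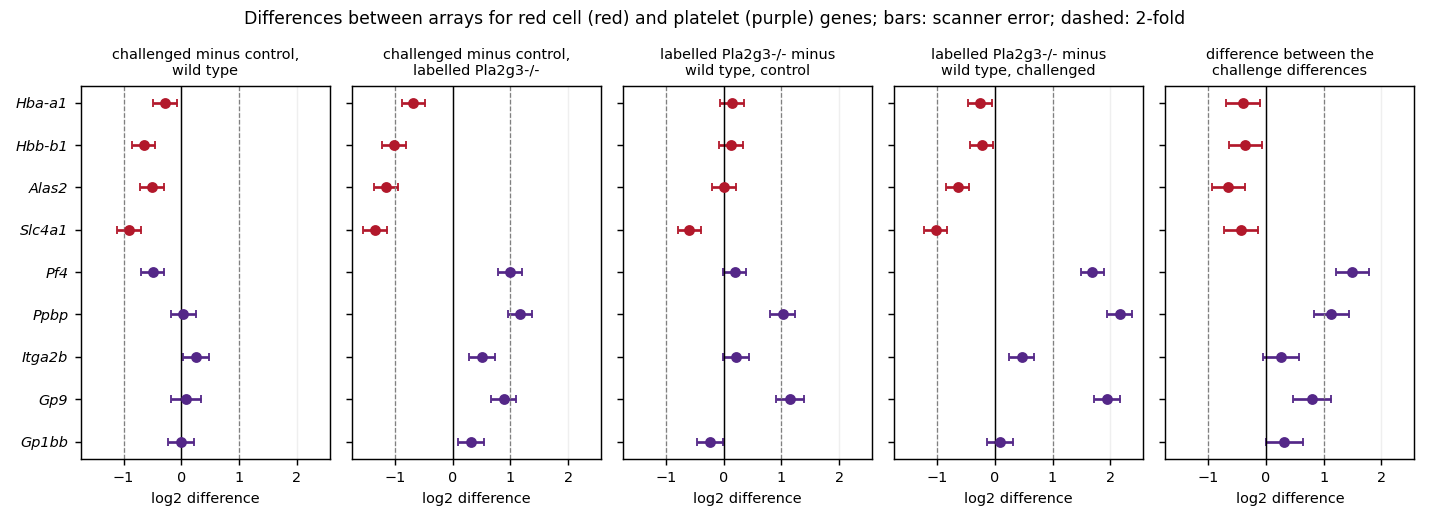
Log2 differences between arrays (horizontal axis) for the 4 red cell genes and the 5 platelet genes (rows), in 5 panels for the challenge differences, the genotype differences and the gap between the challenge differences, with bars for the scanner's error and dashed lines at 2-fold. With challenge, Pf4, Ppbp and Gp9 lie at 1.69, 2.16 and 1.94 in the genotype panel while the red cell genes lie between -1.02 and -0.23.

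Between genotype labels, the red cell genes had a median difference of 0.07 without challenge and -0.45 with it, and 1 of the 4 (Slc4a1) was at least 2-fold lower with challenge, where 2.48% of all genes were. Under quantile and median scaling Slc4a1 was just short of that line. The platelet genes had medians of 0.21 and 1.69. Without challenge, 2 of the 5 (Ppbp and Gp9) were at least 2-fold higher on the array labelled Pla2g3-/-, where 3.19% of all genes were. The gap between the challenge differences had a median of -0.41 for the red cell genes and 0.80 for the platelet genes, and 2 platelet genes (Pf4 and Ppbp) passed 2-fold in it, as did 2.81% of all genes. Counted in either direction, 0 of the 9 genes in wild type and 4 of 9 under the Pla2g3-/- label differed at least 2-fold with challenge (3.49% and 7.28% of all genes), 2 and 4 between genotype labels without and with challenge (4.99% and 6.32%), and 2 in the gap (5.51%). The median over all genes lay between -0.06 and -0.03 in each of the 5 comparisons.

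The only test over the 4 arrays was an additive limma fit of genotype label and challenge, with 1 residual degree of freedom. Its residual error for a gene is set only by the gap between the challenge differences, and is smaller than that gap. The fit then shrinks this error towards a trend over all genes, so the SE values below also draw on other genes. After Benjamini-Hochberg adjustment over 24550 genes, limma called none of the 9 genes for either effect. Over all genes it called 1 for challenge, with 3475 genes (14.2%) at an unadjusted p under 0.05, and 0 for genotype, with 2806 genes (11.4%) so. The 4 red cell genes were the members under that unadjusted threshold for challenge. Slc4a1 had an average challenge difference of -1.12 ± 0.15 (SE; limma adjusted p = 0.222) and Hbb-b1 one of -0.83 ± 0.12 (limma adjusted p = 0.227). Alas2 (-0.83 ± 0.18) and Hba-a1 (-0.48 ± 0.13) had limma adjusted p-values of 0.278 and 0.295. For the genotype label, Gp9 (1.54 ± 0.28), Ppbp (1.59 ± 0.33) and Slc4a1 (-0.81 ± 0.15) were under the unadjusted threshold, with limma adjusted p-values of 0.246, 0.265 and 0.254. Pf4 had an average genotype difference of 0.94 ± 0.39 (limma adjusted p = 0.491), and its challenge differences, of opposite sign, enter this fit as error.

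The other globin genes were set beside Hba-a1 and Hbb-b1. Of 10 genes of globins and their chaperone with a probe, 9 were well above background on at least 1 array. With challenge, 8 of 9 with a value read lower in wild type (median -0.43), where 54.3% of all genes did. In the arrays labelled Pla2g3-/-, 8 of 8 did so (median -0.67), where 57.8% of all genes did. Ahsp, the chaperone that holds free alpha chains, differed most, with 742.9 and 418.0 intensity units on the control arrays (wild type, then labelled Pla2g3-/-) and 297.3 and 120.4 on the challenged arrays. Its challenge difference was -1.19 in wild type and -1.90 in the arrays labelled Pla2g3-/-, and it was the 1 gene of this list past 2-fold in either. Hba-a2 and the other beta globins are named as the closest relatives of the members. Hba-a2 read 356399 and 345185 intensity units on the control arrays and 342231 and 323598 on the challenged arrays. Its challenge differences were 0.08 in wild type and -0.20 under the Pla2g3-/- label, against -0.28 and -0.68 by the Hba-a1 probe. The files pair both probes with the mRNAs of both genes, so these are disagreeing readings of the same pair of genes and neither is specific to 1 of them. Hbb-bt differed by -0.46 and -0.70 with challenge, and Hbb-b2, whose probe also matches Hbb-b1, by -0.40 and -0.74. The embryonic globin Hba-x was not well above background on any array.

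Other red cell genes were mixed. Of 35 genes for the red cell membrane, erythroid enzymes and erythroid factors, 25 of 34 with a value read lower with challenge in wild type (median -0.20) and 24 of 35 in the arrays labelled Pla2g3-/- (median -0.30). Of all genes, 54.3% and 57.8% read below 0 in these comparisons. In the arrays labelled Pla2g3-/-, 4 of 35 were at least 2-fold lower, as were 3.42% of all genes. Among the 4 were Rhd, which encodes an Rh surface protein (a bound of -1.49), and Rhag, the Rh-associated glycoprotein (-1.12). Nfe2, a transcription factor of erythroid cells and megakaryocytes, read 2.20 higher there and 0.66 higher in wild type, and Aqp1, a water channel that endothelium also makes, read 1.11 and 0.56 higher. Rhag was also the 1 gene of this list at least 2-fold lower in wild type, by a bound of -2.55. Klf1, the erythroid Kruppel-like factor, was well above background on the control array labelled Pla2g3-/- and not on the wild-type control array, a bound of 1.21 for the genotype difference without challenge.

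The other enzymes of haem synthesis were mixed. None of the 8 reached 2-fold in any of the 5 comparisons, and their median challenge difference was 0.02 in wild type and -0.09 in the arrays labelled Pla2g3-/-. Alas1, the form of the first enzyme found in all tissues, differed by -0.51 in both, the same as Alas2 in wild type, and Fech, which inserts iron into haem, by -0.25 and -0.52. These genes were named for their place in the pathway after their values were seen. Among 9 detected genes for the handling of free haemoglobin and haem, Hpx, the haem carrier hemopexin, read 1.63 higher with challenge in the arrays labelled Pla2g3-/- and Spic, a factor of red-pulp macrophages that recycle red cells, differed by -1.19. Hmox1, haem oxygenase, also named after its values were seen, had challenge differences of 0.41 and 0.72.

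**Figure D3:**
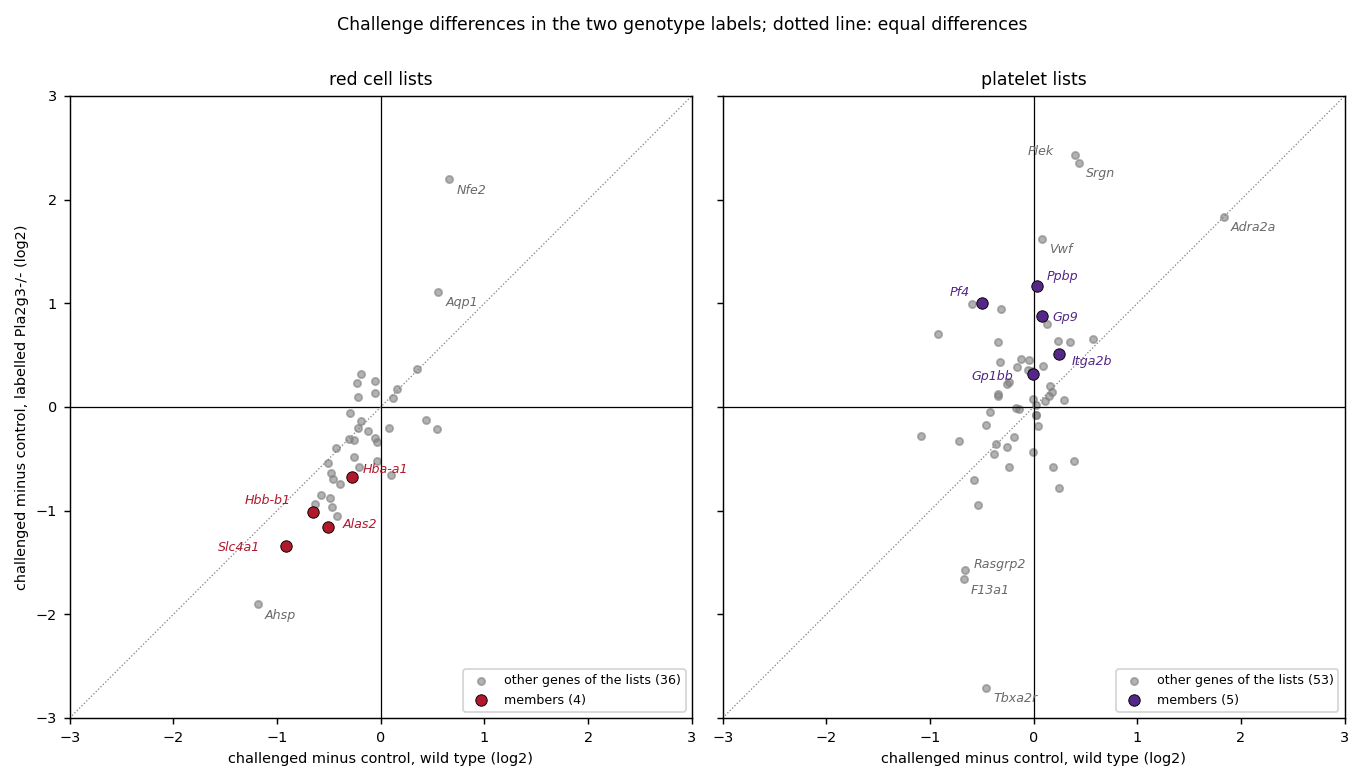
Challenge difference in wild type (horizontal axis, log2) against that in the arrays labelled Pla2g3-/- (vertical axis, log2) for genes measured in both, with the 4 red cell genes and other red cell genes on the left and the 5 platelet genes and other platelet genes on the right; the dotted line marks equal differences. The red cell genes lie in the lower left, with Ahsp beyond them at -1.19 and -1.90, while Pf4, Ppbp and Gp9 lie above the line.

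Gp9 and Gp1bb were set beside the rest of their receptor, and Itga2b beside its partner. In the receptor for von Willebrand factor, Gp1ba, the chain that binds the ligand, read 27.29 and 28.14 intensity units on the control arrays and 21.82 and 24.76 on the challenged arrays (wild type first), and Gp5, a further subunit, read 34.75, 39.17, 31.54 and 31.32 in that order. Between the challenged arrays Gp1ba differed by 0.05 and Gp5 by -0.14, against 0.09 for Gp1bb and 1.94 for Gp9. Itgb3, the beta subunit that pairs with Itga2b, had challenge differences of -0.32 in wild type and 0.43 in the arrays labelled Pla2g3-/-. These 3 partners were named after their values were seen.

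The wider platelet lists had medians near 0. Of 18 receptors, 5 of 17 with a value read higher with challenge in wild type (median -0.17) and 10 of 18 in the arrays labelled Pla2g3-/- (median 0.12). Of all genes, 45.7% and 42.2% read above 0 in these comparisons. Adra2a, an adrenaline receptor, read 1.83 higher in both, while Gp6, the collagen receptor, was detected only on the challenged array labelled Pla2g3-/- (27.87 intensity units, a bound of 1.56), and Tbxa2r, the thromboxane receptor, differed by -2.71 with challenge under the Pla2g3-/- label. Tbxa2r had 403.3 intensity units on the control array labelled Pla2g3-/- and 47.79 to 72.13 on the other 3 arrays. Of 16 granule genes, the median was 0.05 in wild type and 0.20 in the arrays labelled Pla2g3-/-, with Srgn, the granule proteoglycan serglycin, at 0.43 and 2.36, Vwf, von Willebrand factor, at 0.08 and 1.62, and F13a1, a clotting factor subunit, at -0.67 and -1.66. Of 21 genes for platelet signalling and cytoskeleton, the medians were -0.26 and 0.07, with Plek, pleckstrin, at 0.40 and 2.43 and Rasgrp2, an exchange factor for Rap proteins, at -0.66 and -1.57. The control array labelled Pla2g3-/- had the lowest signal of Vwf (1033 intensity units, against 2404 to 3434 on the other arrays). It had the highest signal of F13a1 (1213, against 277.7 to 486.8) and of Rasgrp2 (868.9, against 195.7 to 340.2). Srgn and Plek instead read highest on the challenged array labelled Pla2g3-/-. Leukocytes also express Srgn and Plek, and endothelium also expresses Vwf.

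Among 11 megakaryocyte factors the median challenge difference was -0.14 in wild type and -0.02 in the arrays labelled Pla2g3-/-. Nfe2, which is also in this list, had its largest challenge difference under the Pla2g3-/- label (2.20, from 70.78 to 349.7 intensity units). In wild type Nfe2 differed by 0.66, and between the challenged arrays by 1.98. Thpo, thrombopoietin, the growth factor of megakaryocytes, read 9.94 intensity units on the control array labelled Pla2g3-/- and 26.06 on the challenged array (1.28), levels close to background. The wild-type arrays read 16.88 (control) and 14.35 (challenged) for Thpo. Fli1, a factor shared with endothelium, differed by -1.16 with challenge in the arrays labelled Pla2g3-/-. Its signal was 290.1 and 473.7 on the control arrays (wild type, then labelled Pla2g3-/-) and 154.0 and 229.3 on the challenged arrays. Gata1, the factor shared with red cell precursors, differed by -0.22 and -0.20 with challenge. Gata1 was named after its value was seen.

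Pf4 and Ppbp lie in a row of chemokine genes on chromosome 5, in the order Cxcl5, Ppbp, Pf4, Cxcl3 and Cxcl15 in RefSeq's annotation. Cxcl5, a neutrophil attractant made by epithelium, read 237.7 and 962 intensity units on the control arrays and 26470 and 98140 on the challenged arrays (wild type, then labelled Pla2g3-/-), so its challenge differences were 6.93 and 6.56, beside -0.50 and 1.00 for Pf4 and 0.04 and 1.17 for Ppbp. Cxcl3, on the other side of Pf4, had challenge differences of 1.27 and 5.62, and Cxcl15, lungkine, of 1.01 and 1.82. In wild type, then, Pf4 and Ppbp were the 2 of these 5 genes that did not read at least 2-fold higher with challenge. Of the receptors for this chemokine family, Cxcr2 had challenge differences of 1.99 and 3.32, Cxcr1 of 0.72 and 2.66, and Cxcr3 of -1.18 and -0.10.

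The start regions of a pair of red cell genes and of the pair of platelet chemokines are printed because the first pair read lowest and the second pair highest on the same array, the challenged one labelled Pla2g3-/-. GATA factors act in both lineages and Kruppel-like factors in red cells, so the letters of their motifs were searched on both strands: for GATA the spelling AGATAA or the spelling AGATAG, and the same with T in place of the first letter, and for the other motif CACCC. Each line gives the 200 bases before the RefSeq start on build GRCm38.p6, in the gene's direction, with matches in capitals. The windows lie at chr11:32283472-32283671, chrX:150547217-150547416, chr5:90772235-90772434 and chr5:90768318-90768517, all on the plus strand.
Hba-a1: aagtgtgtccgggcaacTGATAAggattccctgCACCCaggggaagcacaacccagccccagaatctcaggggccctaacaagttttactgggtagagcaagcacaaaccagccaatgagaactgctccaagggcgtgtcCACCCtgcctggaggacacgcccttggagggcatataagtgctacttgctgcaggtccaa
Alas2: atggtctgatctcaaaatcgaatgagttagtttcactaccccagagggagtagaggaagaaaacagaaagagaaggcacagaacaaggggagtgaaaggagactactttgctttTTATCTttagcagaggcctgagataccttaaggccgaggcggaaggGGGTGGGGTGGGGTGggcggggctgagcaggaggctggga
Pf4: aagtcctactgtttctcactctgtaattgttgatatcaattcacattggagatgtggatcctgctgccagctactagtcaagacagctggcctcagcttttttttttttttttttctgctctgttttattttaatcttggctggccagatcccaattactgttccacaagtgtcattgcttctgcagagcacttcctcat
Ppbp: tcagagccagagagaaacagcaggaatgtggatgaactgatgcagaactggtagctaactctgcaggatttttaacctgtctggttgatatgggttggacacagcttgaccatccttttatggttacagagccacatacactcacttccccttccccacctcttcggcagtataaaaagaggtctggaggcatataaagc

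Hba-a1 had a GATA match at -183 and CACCC matches at -167 and -60 from the start, and Alas2 had a GATA match at -86 and a run of CACCC matches at -40, -35 and -30. No GATA match overlapped a CACCC match in these. Pf4 had its GATA match after the start, at 37, and Ppbp had no match to either motif. The other platelet genes did have matches: Gp1bb a GATA match at -22 and 4 CACCC matches, Gp9 a CACCC match at -87, and Itga2b one at 2. The printed pairs therefore do not stand for red cell and platelet genes as groups. Over windows from 250 bases before to 50 after the start, 4 of the 7 genes with a window held a GATA match and 5 held CACCC, while 29.8% and 57.5% of 32851 windows of 300 bases did. Hbb-b1 and Slc4a1 have no window in the table used. A match is a matter of letters only, and the windows of Hba-a1 and Hba-a2 share a run of 297 bases.

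Genes whose levels over the 4 arrays were most like those of Hba-a1 and Pf4 were found by the Euclidean distance between centred log2 profiles, among 22234 genes well above background on all 4 arrays. For Hba-a1 they were Gstt3 (distance 0.025), 2900054C01Rik, Crebl2, Pigp and Zbtb34 (0.046). The other red cell genes stood further off, with Hbb-bt at rank 475, Hbb-b2 at rank 1452, Hbb-b1 at rank 3377, Hba-a2 at rank 5546, Alas2 at rank 6917 and Slc4a1 at rank 19850. The distance counts both the size and the direction of differences. Slc4a1 had a genotype difference of -0.59 without challenge, against 0.15 for Hba-a1. Hba-a2 had a wild-type challenge difference of 0.08, against -0.28 for Hba-a1. For Pf4 they were Il2rb (0.17), Snx20, Cd69, Xpnpep2 and a transcript with an Ensembl name only (0.23). Gp9 stood at rank 400, Ppbp at rank 456, Itga2b at rank 792 and Gp1bb at rank 4629 from Pf4. The profile rests on 4 points, 1 per array.

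Markers of other cell types also differed between these arrays. The sums given here are on the linear scale, so the brightest genes of a list weigh most in them. The platelet sum is mostly Pf4, whose level ran from -1.06 to 0.63, against -5.90 to -3.02 for the other platelet genes. The red cell sum is mostly Hba-a1 (6.64 to 7.32), with Hbb-b1 next (3.36 to 4.37). The summed signal of the platelet genes, each array scaled to its 75th percentile, was 0.768 and 0.912 on the control arrays (wild type, then labelled Pla2g3-/-) and 0.576 and 1.80 on the challenged arrays, and that of the red cell genes was 171 and 188 on the control arrays and 136 and 114 on the challenged arrays. Over 13 macrophage markers the sums were 70.1, 70.8, 79.4 and 96.3 in the same order, with 12 of 13 reading higher with challenge in the arrays labelled Pla2g3-/- (median 0.52) and 7 of 13 in wild type (median 0.02). Pf4 is also transcribed by some mouse macrophages. Marco, a macrophage scavenger receptor, had challenge differences of -2.01 in wild type and 1.94 in the arrays labelled Pla2g3-/-. It was not typical of its list: 1 of the 13 was at least 2-fold lower in wild type, and 2 were at least 2-fold higher in the arrays labelled Pla2g3-/-. Over 13 neutrophil markers the sums were 238.7, 231.6, 277.7 and 310.5, with median challenge differences of 1.36 and 1.88. Over 11 endothelial markers they were 6.56, 5.28, 5.98 and 6.94, with medians of -0.08 and 0.81 and 10 of 11 above 0 in the latter. All of these macrophage and neutrophil markers, and 10 of 11 endothelial ones, were well above background on all 4 arrays. Over 10 markers shared by all leukocytes, the sums were 23.4, 38.2, 17.1 and 29.1. Under the Pla2g3-/- label 10 of 10 read higher without and with challenge (medians 0.85 and 0.91, against -0.03 and -0.05 over all genes). These 10 read lower with challenge in wild type, 10 of 10 (median -0.50), and 6 of 10 did so under the Pla2g3-/- label (median -0.38). Of all genes, 54.3% and 57.8% read lower with challenge in these. Of 11 T cell markers, 11 read lower with challenge in wild type (median -0.80) and 11 under the Pla2g3-/- label (median -2.79). Of 9 B cell markers, 9 did so in wild type (median -1.31) and 3 under the Pla2g3-/- label (median 0.03). Of 10 thymocyte markers, 6 did so in wild type (median -0.29) and 10 under the Pla2g3-/- label (median -3.31). Over 20 airway epithelial markers the sums were 1205, 1223, 1244 and 1115. The part of these cell types in the differences of the red cell and platelet genes was not tested.

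**Figure D4:**
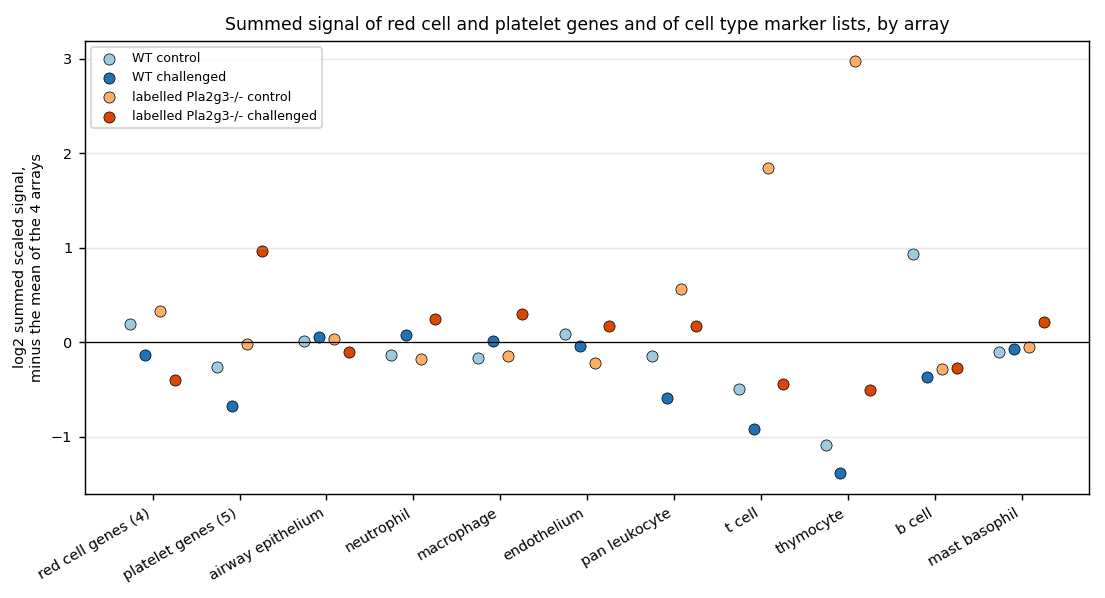
Log2 of the summed scaled signal of the red cell genes, the platelet genes and 9 lists of cell type markers (horizontal axis), each minus its mean over the 4 arrays (vertical axis), with 1 point per array. The sum of the platelet genes, mostly Pf4, is highest on the challenged array labelled Pla2g3-/-. The sum of the red cell genes, mostly Hba-a1, is lowest there, and the thymocyte list stands out on the control array labelled Pla2g3-/-.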

How the data were processed

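Gene expression was measured on 4 single-colour Agilent arrays, 1 for each group of RNA pooled from 4 samples. Per the file headers, the intensity of each spot was background-subtracted and detrended with Agilent Feature Extraction 11.5.1.1 in the deposited scanner output, with probes placed on mm9. A deposited series table of intensity values equals the processed signal divided by the array's 75th percentile. All 4 arrays share 1 slide, so the position of an array and its group cannot be told apart.

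From 43020 non-control spots, outlier spots were left out, spots of a probe were averaged, and the signal was put on the log2 scale with no pseudocount and set relative to the 75th percentile of the array. Of 39410 probes, 28318 took a symbol from RefSeq's gene table (GRCm38.p6, used only for symbols and the order of genes), and 11092 kept that of the file. A gene is represented by its brightest probe. Where a probe passed the scanner's background test on 1 of the arrays compared, the difference is called a bound, and where on neither, there is no value. For a bound, the undetected array is taken at its own reading or at its lowest detected signal, whichever is higher. The additive fit used limma 3.58.1 in R 4.3.3, with a trend, on genes detected on at least 1 array. It was also run on simulated data, with spread drawn from the fit's own prior and a challenge effect only. That run cannot show how the fit performs on these arrays. The number of arrays limits the precision.

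Members and gene lists were chosen with earlier results of these data known. Beyond the members, genes were named where they were among the 4 with the largest difference of at least 2-fold per list, comparison and direction, as neighbours in the genome, or as the 5 nearest profiles. Some genes that met this rule are not reported here. Alternatives were normexp, quantile and median scaling, the series table, the mean of a gene's probes, detection on all 4 arrays, no trend and, added after seeing the data, the other control array.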

Additional observations from a re-analysis of the deposited data

Results flagged for a closer look

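Pf4 and Gp1bb had challenge differences of opposite sign under the 2 genotype labels. Pf4 differed by -0.50 in wild type and 1.00 (0.9983 unrounded) in the arrays labelled Pla2g3-/-. Gp1bb differed by -0.01 (-0.0094) in wild type and 0.31 (0.3129) in the arrays labelled Pla2g3-/-. With 1 array per group, neither difference between the labels was tested, and the wild-type value of Gp1bb is smaller than the scanner's error and changed sign under other scalings.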

How the results depend on the processing

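Over the 9 genes and 5 comparisons, 45 of 45 values stayed within the scanner's error under quantile, median and series table scaling and with detection on all 4 arrays, 43 of 45 with probes averaged per gene, and 34 of 45 under normexp. With the other control array, chosen after seeing the data, 10 of 18 challenge values did. Part of this agreement was fixed in advance. The series table is the same signal over the same percentile, and the detection filter leaves the values of these 9 genes unchanged. Median scaling shifts all genes of an array by 1 constant. Averaging probes can change only Gp1bb, the 1 gene of the 9 with more than 1 probe, and the values that moved there were of Gp1bb. Under normexp the count of these genes at least 2-fold different was 0 instead of 2 for genotype without challenge, 2 instead of 4 with challenge, and 1 instead of 2 for the gap between the challenge differences. For challenge under the Pla2g3-/- label, 1 higher (Ppbp) and 3 lower became 0 and 3 under normexp, 2 and 2 under quantile and median scaling, and 3 and 2 with the other control array. With that array 1 gene (Gp9) instead of 0 passed for challenge in wild type. Over all genes, normexp gave 185 instead of 840 for challenge in wild type, 697 instead of 1729 for challenge in the arrays labelled Pla2g3-/-, 455 instead of 1194 and 436 instead of 1507 for genotype without and with challenge, and 563 instead of 1225 for the gap. Detection on all 4 arrays, which leaves fewer genes, gave 465 for challenge in wild type and 985 for genotype with challenge. In the additive limma fit, the count for challenge (1) was 4 under normexp, 2 under quantile normalization, 5 with detection on all 4 arrays and 0 without the trend, with 2426 genes then at an unadjusted p under 0.05. That for genotype (0) was 18 under normexp and 8 with detection on all 4 arrays. None of the 9 genes was called under any of these. The normexp setting adds 50 to every intensity, which by arithmetic makes log2 differences of dim probes smaller. Among the 9 genes, every value that moved under normexp was of Ppbp, Itga2b, Gp9 or Gp1bb. How much of the change in counts comes from this offset was not tested. Except for the smaller set of genes, other causes were not tested either. No paired analysis was possible because each group has 1 array and the labels give no shared replicate numbers. Dim probes limit Ppbp, Itga2b, Gp9 and Gp1bb, which read 32.00 to 243.9 intensity units against a local background of 25 to 25.5.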
